A study of Mus musculus with 10 samples.

Results

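Transforming growth factor beta (TGF-beta) signaling was followed through 10 genes: the ligands Tgfb1, Tgfb2 and Tgfb3, the latency protein Ltbp1, the activator Thbs1, the receptors Tgfbr1, Tgfbr2 and Tgfbr3, and the intracellular Smad3 and Smad7. They were chosen by name, with earlier results of these data known. All 10 were listed both in the sorted macrophage table, among 23202 genes, and in the whole-tumor table, among 19720 genes. The mice were B6:MMTV-PyMT animals, in which a viral oncogene driven in mammary epithelium gives spontaneous mammary tumors. All of them carried Cxcr4fl/fl alleles and were 15 weeks old. Mice labelled cKO also carried LysmCre, a Cre recombinase of the myeloid lineage, and controls were littermates with no Cre. The libraries are 3 of macrophages labelled cKO (mice 725, 746 and 867), 3 of control macrophages (706, 720 and 775), 2 of tumors labelled cKO (725 and 746) and 2 of control tumors (706 and 720), so 4 of 6 mice gave both kinds. Macrophages were sorted for F4/80 and CD11b from tumors dispersed with collagenase, while whole tumors were snap frozen.

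TGF-beta is secreted in a latent form, bound to its own propeptide and to a latent TGF-beta binding protein such as Ltbp1, and has to be released by integrins, proteases or thrombospondin-1 before it can signal. Free ligand binds the type II receptor Tgfbr2, which activates the type I receptor Tgfbr1, with Tgfbr3 (betaglycan) as a coreceptor that presents ligand, above all Tgfb2. The active receptor phosphorylates Smad2 and Smad3, which carry the signal to the nucleus and induce, among others, the inhibitor Smad7. In mammary tumors the pathway is known for limiting epithelial growth, for matrix production by fibroblasts and for restraining immune cells.

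Some ligand and receptor genes differed in level between sorted macrophages and whole tumors. For that reason the promoters of the genes furthest apart among those with an entry in the table are shown. Tgfb1 and Tgfbr1 were higher in macrophages than in the tumor of the same mouse, and Tgfb2 was lower. The sequences are those of RefSeq on GRCm38.p6, in gene direction, with 250 bases before and 50 after the annotated start. Capitals mark matches to short motifs, searched on both strands, and no match overlapped another. The GC box, which Sp1 factors bind, was searched as GGGCGG. The TATA box, which places the start of transcription, was searched as TATAAA. The core that Smad proteins bind was searched as CAGAC, so that on the other strand it reads in reverse complement. The windows are chr7:25686752-25687051 on the plus strand for Tgfb1, chr4:47352972-47353271 on the plus strand for Tgfbr1 and chr1:186705940-186706239 on the minus strand for Tgfb2.
Tgfb1: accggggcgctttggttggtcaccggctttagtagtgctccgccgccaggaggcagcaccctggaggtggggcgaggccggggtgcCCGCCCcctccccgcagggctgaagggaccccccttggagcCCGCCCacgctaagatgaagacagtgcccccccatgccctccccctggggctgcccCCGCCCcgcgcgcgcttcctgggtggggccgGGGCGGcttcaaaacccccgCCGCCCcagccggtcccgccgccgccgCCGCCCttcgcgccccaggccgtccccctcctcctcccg
Tgfbr1: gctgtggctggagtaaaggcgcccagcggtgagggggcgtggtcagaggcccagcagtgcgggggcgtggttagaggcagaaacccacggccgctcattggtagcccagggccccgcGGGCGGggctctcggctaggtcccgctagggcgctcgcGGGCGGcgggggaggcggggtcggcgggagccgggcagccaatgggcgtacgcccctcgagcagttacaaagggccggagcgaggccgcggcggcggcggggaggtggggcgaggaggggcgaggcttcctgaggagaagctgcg
Tgfb2: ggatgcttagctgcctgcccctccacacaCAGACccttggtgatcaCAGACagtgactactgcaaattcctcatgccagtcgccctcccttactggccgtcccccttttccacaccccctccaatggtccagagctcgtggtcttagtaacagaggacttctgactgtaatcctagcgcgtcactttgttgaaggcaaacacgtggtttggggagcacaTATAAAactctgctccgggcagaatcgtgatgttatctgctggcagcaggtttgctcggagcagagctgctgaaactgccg
The Tgfb1 window held 77.0% G and C, 30 CpG pairs and 6 GC boxes, with neither a TATA box nor a Smad core. Tgfbr1 was alike, with 74.7% G and C, 34 CpG pairs and 2 GC boxes. Tgfb2 had 54.3% G and C, 10 CpG pairs, no GC box, a TATA box that begins at base -31 from the start and 2 Smad cores. Of 32851 promoter windows in the table, 35.7% held a GC box, 13.6% a TATA box and 49.6% a Smad core. Entries were found for 6 of the 10 genes, not for Tgfb3, Thbs1, Tgfbr3 and Smad7. Tgfbr1 and Ltbp1 had 2 starts listed each, and only the window nearest the GENCODE vM21 gene start was read. For Ltbp1 that window's start lay 39 bases from it. Of the entries not shown, Smad3 had 2 GC boxes and no Smad core, and Ltbp1 and Tgfbr2 each had 1 Smad core and no GC box. Their mean macrophage minus tumor log2 differences were 0.49, 0.39 and 0.52 by library total. Scaled to protein-coding genes, these were -0.04, -0.15 and -0.02. Whether promoter letters go with the direction was not tested. A match of letters is a description and not a site of binding.

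Values are in CPM, the share of reads of a gene scaled so that each library sums to 1000000 over its listed genes. Inferred depth was 14.45 to 25.15 M reads in macrophage libraries and 34.2 to 53.3 M reads in tumors (M = 1000000), so that 1 CPM stands for at least 14.45 reads. The level of Cxcr4 was not lower in the groups labelled cKO. Macrophages labelled cKO held 41.9, 165.2 and 24.1 CPM, against 14.45, 135.4 and 54.3 CPM in controls (limma log2 difference 0.21, adjusted p = 0.9998). Tumors labelled cKO held 47.9 and 57.6 CPM, against 29.8 and 33.4 CPM in controls. Both cKO tumors thus lay above both controls, as for 21.2% of all genes tested. The tumor log2 difference was 0.72 (95% interval 0.11 to 1.33, limma unadjusted p = 0.02425 and adjusted p = 0.819). Every direction given here is therefore that of the label. The 9 macrophage markers summed to 707 to 1915 CPM in sorted libraries and 70.5 to 79.8 CPM in tumors. Among them Lyz2 was low in sorted libraries, from 0.13 CPM in control 720 to 7.31 CPM in cKO 867. The 6 epithelial markers summed to 1601 to 2573 CPM in sorted libraries and 890 to 1046 CPM in tumors. Epithelial transcripts thus remained after the sort, and their summed level was higher there than in tumors. The 9 fibroblast markers summed to 1201 CPM in cKO 867 and 435 CPM in control 775 and to between 60.6 and 150 CPM in the other macrophage libraries, and the 8 endothelial markers to 288, 110.0 and between 17.5 and 24.2 CPM. The part of these cell types in the results was not tested. In such bulk libraries, fewer cells of a type and less RNA per cell cannot be told apart.

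The comparison of cKO with control asks how deletion of Cxcr4 in myeloid cells changes macrophages and the tumor around them. None of the 10 genes passed the test in either kind of sample. The test was limma on log2(CPM + 1) over all genes of a table whose mean reached 1 CPM, and a gene passed with an adjusted p under 0.05. No gene of the whole table passed either (0% of 16304 genes in macrophages and 0% of 14630 in tumors), while 428 (2.63%) and 856 (5.85%) had an unadjusted p under 0.05. In macrophages 1 gene passed without cKO 867, 1 without control 706 and 3 without control 775, and no TGF-beta gene was among them. The median difference of the 10 genes was 0.12 log2 units in macrophages, against 0.05 over all genes, and 0.28 in tumors, against 0.09 over all genes. With 1 library left out it ran from 0.054 (without cKO 746) to 0.32 (without cKO 725) in macrophages and from 0.15 (without control 706) to 0.35 (without cKO 725) in tumors. In macrophages 7 were above and 3 below 0, where 54.7% of all genes were above, and in tumors 8 and 2, where 56.6% were. When scaled to protein-coding genes, the median of all genes moved to -0.01 in macrophages and -0.03 in tumors, and the 10 genes split 5 to 5 in macrophages and 7 to 3 in tumors.

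**Figure D1:**
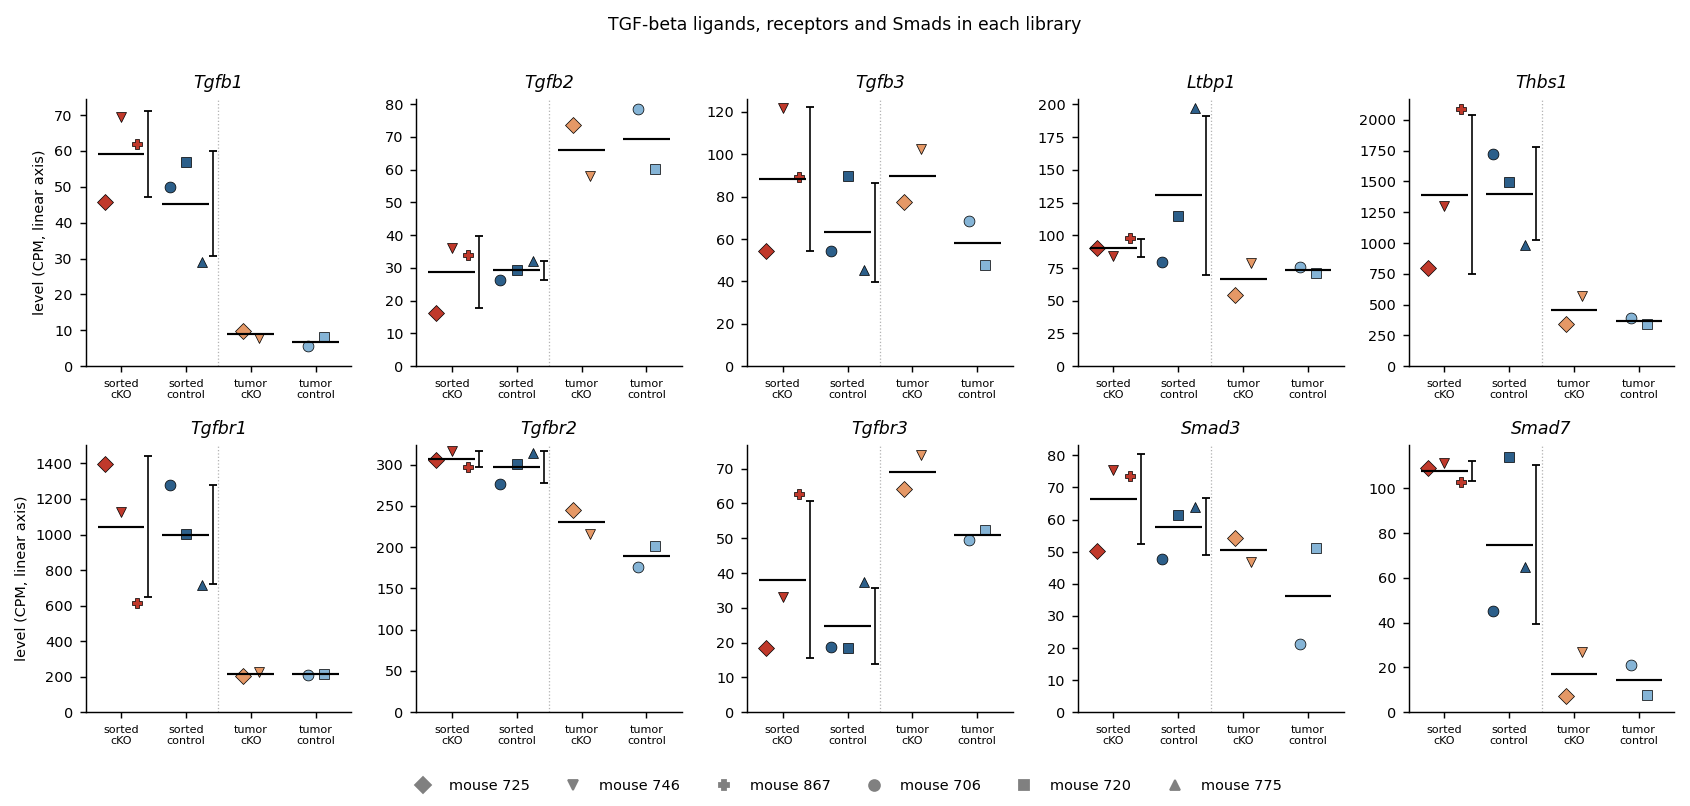
Level of each gene in every library, in CPM on linear axes that start at 0, for macrophages ("sorted") and whole tumors labelled cKO or control. Symbols give the mouse, horizontal bars the group mean and vertical bars the SD where there are 3 libraries. Tgfb1, Tgfbr1, Thbs1 and Smad7 sit higher in sorted cells, Tgfb2 and Tgfbr3 sit mostly higher in tumors, and in sorted cells no gene separates the genotypes.

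Tgfb1 encodes the ligand best known from immune cells, and lies on chromosome 7 from 25687002 to 25705077 (GRCm38, plus strand). In macrophages it was at 45.9, 69.6 and 62.0 CPM in cKO libraries 725, 746 and 867, against 50.02, 57.0 and 28.9 CPM in controls 706, 720 and 775. The groups overlapped, and control 775, which also had the lowest macrophage marker sum (707 CPM), was the lowest of the 6. The means were 59.2 ± 12.1 CPM in cKO and 45.3 ± 14.6 CPM in control macrophages (SD, n = 3 each), a log2 difference of 0.41 (95% interval -0.25 to 1.08, limma adjusted p = 0.9998). Without control 775 the difference was 0.12. In whole tumors Tgfb1 was at 9.74 and 7.97 CPM in cKO and 5.53 and 8.23 CPM in controls, again with overlap (difference 0.34, 95% interval -0.92 to 1.60, and 0.089 without control 706).

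Tgfb3, a ligand of mesenchymal and epithelial cells, had the largest difference of the 10 genes in tumors. It was at 77.3 and 102 CPM in cKO tumors 725 and 746 and at 68.6 and 47.8 CPM in control tumors 706 and 720. Both cKO tumors lay above both controls, as did 21.2% of all genes tested. The log2 difference was 0.63 (SE 0.26, 95% interval 0.07 to 1.18), with an unadjusted p of 0.0292 and an adjusted p of 0.826 (limma), and it ranged from 0.37 without control 720 to 0.88 without control 706. In macrophages the gene was at 54.2, 122 and 89.0 CPM in cKO and 54.3, 89.6 and 45.6 CPM in controls. Here the groups overlapped, with a difference of 0.46 (95% interval -0.21 to 1.13, limma adjusted p = 0.9998) that ran from 0.19 without cKO 746 to 0.77 without cKO 725. The span of Tgfb3 (chromosome 12, 86056745 to 86079041, minus strand) lies across that of Ttll5 on the other strand, which held 13.5 to 24.2 CPM in macrophages and 13.7 to 19.1 CPM in tumors, so that part of its reads may belong to that gene.

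Tgfb2, the ligand that depends most on betaglycan, showed no direction. Macrophages had 16.2, 36.1 and 34.0 CPM in cKO libraries and 26.3, 29.4 and 32.2 CPM in controls. The spread within the cKO group enclosed all 3 controls (difference -0.10, 95% interval -0.87 to 0.67). Tumors had 73.8 and 58.1 CPM in cKO and 78.5 and 60.2 CPM in controls, a difference of -0.07 (95% interval -0.61 to 0.47). Tgfb2 lies on chromosome 1 from 186622792 to 186705989 (minus strand).

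Ltbp1 tethers latent TGF-beta to the matrix, and Thbs1 encodes thrombospondin-1, a matrix glycoprotein that can release the active ligand. Ltbp1 (chromosome 17, 75005568 to 75392512, plus strand) was at 90.2, 84.0 and 97.6 CPM in cKO macrophages and at 79.3, 115 and 197 CPM in control macrophages. The cKO libraries lay close together, and the control group was spread by mouse 775, in which fibroblast markers were also higher than in the other 2 controls (435 CPM against 60.65 and 92.4 CPM). Among cKO libraries Ltbp1 was highest, by a small margin, in 867, which had the highest fibroblast sum of all (1201 CPM). The part of fibroblast transcripts in these levels was not tested. The difference was -0.42 (95% interval -1.04 to 0.19, limma adjusted p = 0.9998), -0.08 without control 775 and -0.73 without control 706. In tumors Ltbp1 was at 54.6 and 78.8 CPM in cKO and 75.5 and 71.3 CPM in controls (difference -0.16, 95% interval -0.70 to 0.38).

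Thbs1 (chromosome 2, 118111876 to 118127133, plus strand) had the highest mean of the 10 genes in both kinds of sample, also per length of exon. It was at 799, 1298 and 2084 CPM in cKO macrophages and 1719, 1497 and 984 CPM in control macrophages. In cKO macrophage library 725 Tgfbr1 was higher, at 1397 CPM. Its lowest and highest macrophage libraries were both of the cKO group, and the means of 1394 ± 648 CPM and 1400.1 ± 377 CPM (SD, n = 3 each) were nearly level (difference -0.08, 95% interval -0.78 to 0.62, limma adjusted p = 0.9998). Tumors held 344 and 571 CPM in cKO and 389 and 341 CPM in controls (difference 0.28, 95% interval -0.17 to 0.74).

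**Figure D2:**
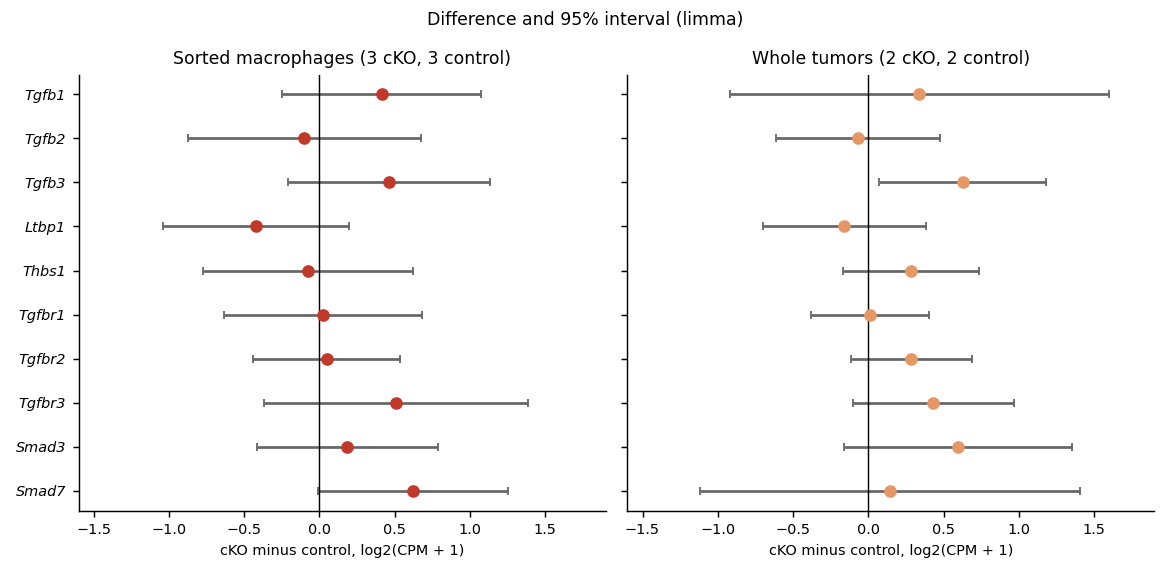
Difference between cKO and control on the log2(CPM + 1) scale for each gene (points) with its 95% interval from limma (bars), in sorted macrophages and in whole tumors. Of the 20 intervals, only that of Tgfb3 in tumors (0.07 to 1.18) leaves out 0, and Smad7 in macrophages begins at -0.0078. No gene passed after adjustment over all genes.

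Tgfbr1, the kinase that phosphorylates Smad2 and Smad3, was the highest receptor gene per length of exon in both kinds of sample. Macrophages held 1397, 1125 and 613 CPM in cKO libraries 725, 746 and 867 and 1276, 1003 and 717 CPM in controls 706, 720 and 775. In each group the lowest library was the one with the highest fibroblast marker sum (867 and 775), and those libraries also had the lowest macrophage marker sums, 1339 and 707 CPM. The difference was 0.02 (95% interval -0.64 to 0.68, limma adjusted p = 0.9998), and it turned to -0.04 when scaled to protein-coding genes and -0.23 without cKO 725, while it was 0.37 without cKO 867 and -0.20 without control 775. Tumors were close to each other, at 205 and 226 CPM in cKO and 210.2 and 217 CPM in controls (difference 0.0098, 95% interval -0.38 to 0.40, and -0.11 when scaled to protein-coding genes). The gene lies on chromosome 4 from 47353222 to 47414931 (plus strand).

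Tgfbr2, the ligand-binding receptor, varied least of the 10 genes among macrophage libraries. It was at 306, 317 and 297 CPM in cKO and 277, 300.5 and 314 CPM in controls (difference 0.05, 95% interval -0.44 to 0.54, and -0.02 when scaled to protein-coding genes). In tumors it was at 244 and 216 CPM in cKO and 176 and 201.5 CPM in controls. Both cKO tumors lay above both controls, with a difference of 0.28 (95% interval -0.12 to 0.69, limma unadjusted p = 0.153 and adjusted p = 0.855). Tgfbr2 is on chromosome 9 from 116084293 to 116175360 (minus strand).

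Tgfbr3 (chromosome 5, 107106570 to 107289629, minus strand) also had both cKO tumors above both controls, at 64.2 and 73.8 CPM in cKO and 49.4 and 52.2 CPM in controls (difference 0.43, 95% interval -0.10 to 0.97, limma unadjusted p = 0.106 and adjusted p = 0.833). In macrophages it was at 18.5, 33.1 and 62.7 CPM in cKO and 18.7, 18.5 and 37.35 CPM in controls. The highest library of each group was again 867 and 775, those with most fibroblast and endothelial transcripts. The difference of 0.51 (95% interval -0.37 to 1.38, limma adjusted p = 0.9998) came to 0.07 without cKO 867 and 0.83 without control 775. Unclassified genes on the same strand inside Tgfbr3 held up to 6.99 CPM.

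Tgfb3, Tgfbr2 and Tgfbr3 were thus the 3 of 10 genes whose cKO tumors both lay above both control tumors, and no gene lay wholly below. Over all tested genes 21.2% lay above and 14.3% below, so 3 of 10 is near the background. In the same tumors the 9 fibroblast markers summed to 350 and 464 CPM in cKO and 616 and 728 CPM in controls, and their part in the result was not tested. In macrophages 0 of 10 genes were separated in either direction, against 3.77% above and 3.45% below over all genes.

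Smad7, which is induced by TGF-beta and blocks its receptor, gave the largest difference among macrophages. It was at 109, 111 and 103 CPM in cKO macrophages and 45.4, 114 and 65.0 CPM in control macrophages. The cKO libraries were within a narrow range, and control 720 lay above them all. With means of 107.7 ± 4.46 CPM and 74.8 ± 35.4 CPM (SD, n = 3 each), the log2 difference was 0.62 (SE 0.30, 95% interval -0.0078 to 1.25), with an unadjusted p of 0.0527 and an adjusted p of 0.9998 (limma). Without control 706 it was 0.32, and without control 720 it was 0.97. In tumors Smad7 was at 7.34 and 27.1 CPM in cKO and 21.2 and 7.65 CPM in controls, so each group held a low and a high tumor (difference 0.14, 95% interval -1.12 to 1.41). It is on chromosome 18 from 75367529 to 75395935 (plus strand).

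Smad3, the signal carrier (chromosome 9, 63646767 to 63757994, minus strand), was at 50.2, 75.3 and 73.4 CPM in cKO macrophages and 47.7, 61.6 and 64.0 CPM in control macrophages (difference 0.19, 95% interval -0.41 to 0.79). It ran from 0.055 without control 706 to 0.37 without cKO 725. In tumors it was at 54.3 and 46.9 CPM in cKO and 21.2 and 51.2 CPM in controls. The tumor difference of 0.60 (95% interval -0.16 to 1.35, limma unadjusted p = 0.115 and adjusted p = 0.833) rested on control 706: without that tumor it was -0.02, and without control 720 it was 1.21.

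Set against whole tumor of the same mouse, sorted macrophages were richest in Tgfb1, Smad7, Tgfbr1 and Thbs1. The tables were normalized separately, so these are values side by side in the 4 shared mice, with no test. Epithelial marker sums were also higher in sorted libraries (1601 to 2573 CPM) than in tumors (890 to 1046 CPM). The levels are therefore those of the sorted libraries, and the part of epithelial transcripts in them was not tested. Tgfb1 in macrophages was 4.71 and 8.74 times its tumor level in cKO mice 725 and 746 and 9.04 and 6.93 times in control mice 706 and 720, a mean log2 difference of 2.68 ± 0.40 (SD, n = 4). Tgfbr1 was at 6.83 and 4.98 times its tumor level in the cKO mice and 6.07 and 4.62 times in the controls (2.47 ± 0.26). All 4 mice showed both ratios in the same direction.

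Smad7 was at 14.8 and 4.11 times its tumor level in macrophages of the cKO mice and 2.14 and 14.9 times in those of the controls (2.63 ± 1.32), so its size varied between mice of 1 genotype. Thbs1 was at 2.32 and 2.27 times its tumor level in cKO mice and 4.42 and 4.38 times in control mice (1.67 ± 0.54). Both cKO mice lay below both controls in this ratio, and Tgfbr2 did so too (1.25 and 1.47 times against 1.57 and 1.49 times). Both cKO mice lay below both controls for 21.7% of all 13783 genes listed in both tables at this minimum, so 2 of 10 genes is near that share, and 0 of 10 lay above, against 13.3%. With protein-coding scaling 1 of 10 (Thbs1, and no longer Tgfbr2) lay below, against 17.5%, and 0 above, against 16.5%.

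On the other side stood Tgfb2 and its coreceptor Tgfbr3. Tgfb2 in macrophages was at 0.220 and 0.621 times its tumor level in cKO mice 725 and 746 and at 0.335 and 0.488 times in control mice 706 and 720 (mean log2 difference -1.34 ± 0.63). Tgfbr3 was at 0.288 and 0.448 times in cKO mice and 0.378 and 0.354 times in controls (-1.42 ± 0.25). In all 4 mice both were lower in the sorted cells. Tgfbr2 (0.52 ± 0.14) and Ltbp1 (0.39 ± 0.36) were higher there in 4 of 4 mice, Smad3 (0.49 ± 0.53) in 3 of 4 and Tgfb3 (0.08 ± 0.63) in 2 of 4.

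In all, 6 of 10 genes were higher in macrophages in every mouse and 2 were lower, where 34.3% of all genes were higher and 11.5% lower. Protein-coding genes took 67.6% to 80.1% of macrophage libraries and 49.7% to 56.5% of tumor libraries, and scaling to them moved the median of all genes from 0.36 to -0.08 log2 units. On that scale 4 genes were higher in every mouse (Tgfb1 at 2.22, Smad7 at 2.14, Tgfbr1 at 1.93 and Thbs1 at 1.13), where 18.8% of all genes were. Tgfb2 (-1.88) and Tgfbr3 (-1.97) were lower in every mouse, where 23.7% of all genes were. Tgfbr2, Smad3, Ltbp1 and Tgfb3 lay between -0.02 and -0.46, with signs that differed between mice in each of the 4 genes. Along with the 4 higher genes, the 6 immediate early genes such as Fos and Egr1, which respond to tissue dispersal, summed to 3788 to 5175 CPM in sorted libraries and 117 to 207 CPM in tumors, and their part in the result was not tested.

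**Figure D3:**
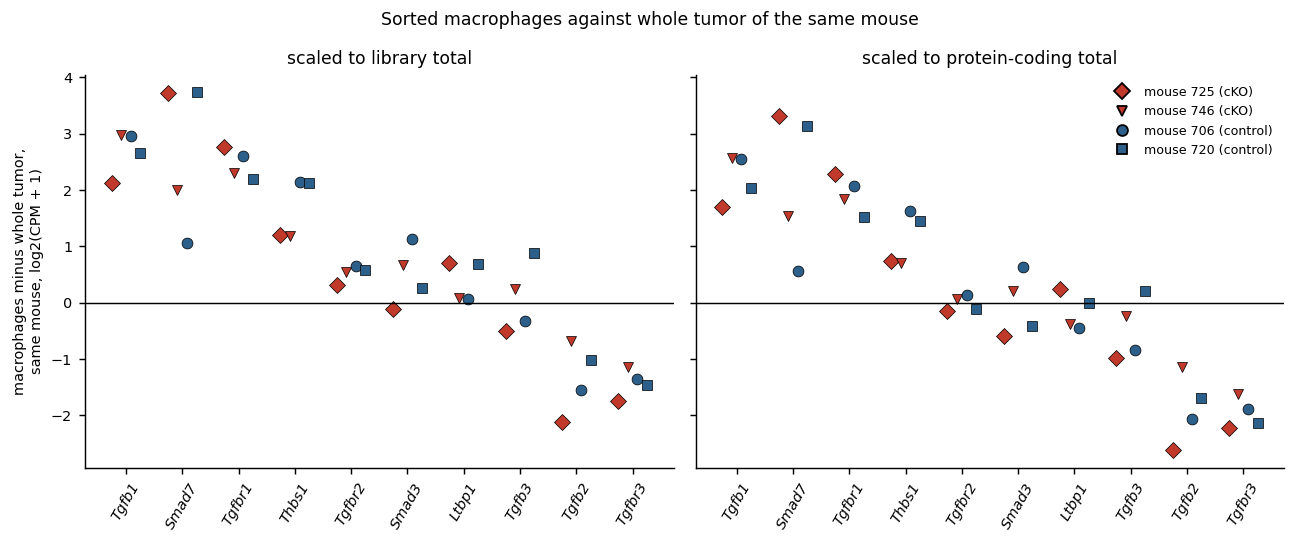
Level in sorted macrophages minus level in the whole tumor of the same mouse, on the log2(CPM + 1) scale, for each gene and each of the 4 shared mice. The left panel is scaled to the library total and the right panel to protein-coding genes. Tgfb1, Smad7, Tgfbr1 and Thbs1 are above 0 and Tgfb2 and Tgfbr3 below 0 in all 4 mice on both scales.

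Divided by exon length, the levels of the 10 genes can be set against each other. In macrophages (n = 6) Thbs1 led at 230 ± 78.1 CPM per kb, followed by Tgfbr1 at 156 ± 47.3 and Tgfbr2 at 36.9 ± 1.77 CPM per kb. The ranges of Thbs1 and Tgfbr1 overlapped, and Tgfbr2 lay wholly below both. Tgfb3 (22.4 ± 8.68) and Smad7 (20.2 ± 6.38) came next and did not differ beyond their spread, nor did Smad3 (11.2 ± 2.07), Tgfb1 (10.4 ± 2.82) and Ltbp1 (10.3 ± 4.14). Tgfb2 (5.01 ± 1.23) and Tgfbr3 (4.81 ± 2.66) were lowest.
In tumors (n = 4) the same 4 genes led, with Thbs1 at 67.8 ± 17.9, Tgfbr1 at 32.8 ± 1.40, Tgfbr2 at 25.6 ± 3.47 and Tgfb3 at 21.9 ± 6.68 CPM per kb. Ranges of Tgfbr2 and Tgfb3 overlapped. Tgfb2 (11.7 ± 1.74), Tgfbr3 (9.16 ± 1.73), Smad3 (7.83 ± 2.73) and Ltbp1 (6.55 ± 1.01) followed, and Smad7 (3.50 ± 2.20) and Tgfb1 (1.56 ± 0.35) closed the order. By mean, Tgfb3 was thus the first ligand in both kinds of sample, while Tgfb1 ranked above Tgfb2 in macrophages, with ranges that just overlapped, and wholly below it in tumors. The lengths join all annotated exons, and with the longest transcript alone Tgfb1 in macrophages was at 20.3 ± 5.52 CPM per kb, next to Smad7 and within the range of Tgfb3.

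Other genes of the pathway were read from a list of 52 that held latency and activation genes, receptors, signal carriers, inhibitors and targets. None passed the test in macrophages (0 of 51 tested) or in tumors (0 of 50 tested). In macrophages 33 were above and 18 below 0, with a median of 0.10 log2 units, against a median of 0.05 over all genes. The split was 27 to 24 when scaled to protein-coding genes, and 25 to 26 with a median of -0.02 without cKO 867. In tumors 28 were above and 22 below 0 with a median of 0.02, against 0.09 over all genes, and the split was 19 to 33 when scaled to protein-coding genes. Without control 720 the tumor split was 21 to 29, and without cKO 746 it was 20 to 28.

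By library total, 9 of 12 genes of latency and activation were above 0 in each kind of sample. Protein-coding scaling, which lowered the median of the whole list in both kinds, was not read for single groups of the list. The medians were 0.28 in macrophages (0.089 without control 775) and 0.15 in tumors (0.048 without control 720). Over all genes 54.7% were above 0 in macrophages, with a median of 0.05, and 56.6% in tumors, with a median of 0.09. Lrrc32, which encodes GARP, a cell-surface carrier of latent TGF-beta, was at 8.75, 12.0 and 29.8 CPM in cKO macrophages and 2.57, 9.75 and 3.78 CPM in control macrophages (difference 1.47, limma unadjusted p = 0.0257 and adjusted p = 0.9998). Only cKO 725 lay below the highest control, and the difference was 0.99 without cKO 867. In tumors Lrrc32 was at 23.4 and 26.0 CPM in cKO and 12.4 and 21.1 CPM in controls. Ltbp2, a matrix protein related to Ltbp1 that does not itself bind latent TGF-beta, was at 116 and 186 CPM in cKO tumors and 68.1 and 116 CPM in control tumors (difference 0.72, limma adjusted p = 0.819, and 0.33 without control 706). Furin, the protease that cuts the TGF-beta precursor, was at 39.9 and 63.1 CPM in cKO tumors and 34.8 and 28.0 CPM in control tumors (difference 0.67, limma adjusted p = 0.833, and 0.35 without cKO 746).

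Target genes had a median of 0.24 in macrophages, with 16 of 23 above 0, where 54.7% of all genes were, and of -0.11 in tumors, with 10 of 22 above 0, where 56.6% were. The macrophage value rested on cKO 867, the library with most fibroblast transcripts: without it the median was -0.02 and 11 of 23 were above 0. In tumors 2 of 22 were above 0 without cKO 746 (median -0.27) and 5 of 22 without control 720 (median -0.24), while the median was -0.015 without cKO 725. Col1a1, a collagen of fibroblasts and a member of the fibroblast marker list too, was at 8.80, 22.1 and 259 CPM in cKO macrophages and 7.22, 7.30 and 55.3 CPM in control macrophages (difference 1.31, limma adjusted p = 0.9998). Its 2 highest libraries were 867 and 775, and without cKO 867 the difference was -0.06. Acta2, smooth muscle actin, was at 20.8, 21.2 and 33.5 CPM in cKO and 9.03, 8.41 and 37.3 CPM in control macrophages (difference 0.74, from 0.38 without control 720 to 1.395 without control 775). Tsc22d1 and Ccn2, a nuclear and a secreted product of TGF-beta induction, had differences of -0.30 and -0.42 in macrophages, that of Ccn2 reaching from -0.69 without control 720 to -0.038 without cKO 725. Every cKO macrophage library was below every control for Tsc22d1 (94.5, 122 and 108 CPM against 125, 147 and 128 CPM), as for 3.45% of all genes.

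In tumors the matrix protein Postn was at 134 and 127 CPM in cKO and 154 and 233 CPM in controls (difference -0.54, limma unadjusted p = 0.0260 and adjusted p = 0.819, and -0.24 without control 720). Col1a1 was at 59.7 and 105 CPM in cKO and 94.7 and 123 CPM in controls (-0.44, and -0.04 without cKO 725), and Tagln, an actin-binding protein of smooth muscle, at 40.5 and 24.3 CPM in cKO and 51.3 and 38.0 CPM in controls (-0.48, and -0.12 without cKO 746). The fibroblast marker sums, which hold Col1a1, were on the same side, and their part in these values was not tested. Snai2, a repressor of epithelial genes, was at 14.5 and 15.2 CPM in cKO tumors and 8.28 and 4.27 CPM in control tumors (difference 1.18, limma unadjusted p = 0.0486 and adjusted p = 0.833, and 0.77 without control 720), and was below the tested minimum in macrophages.

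**Figure D4:**
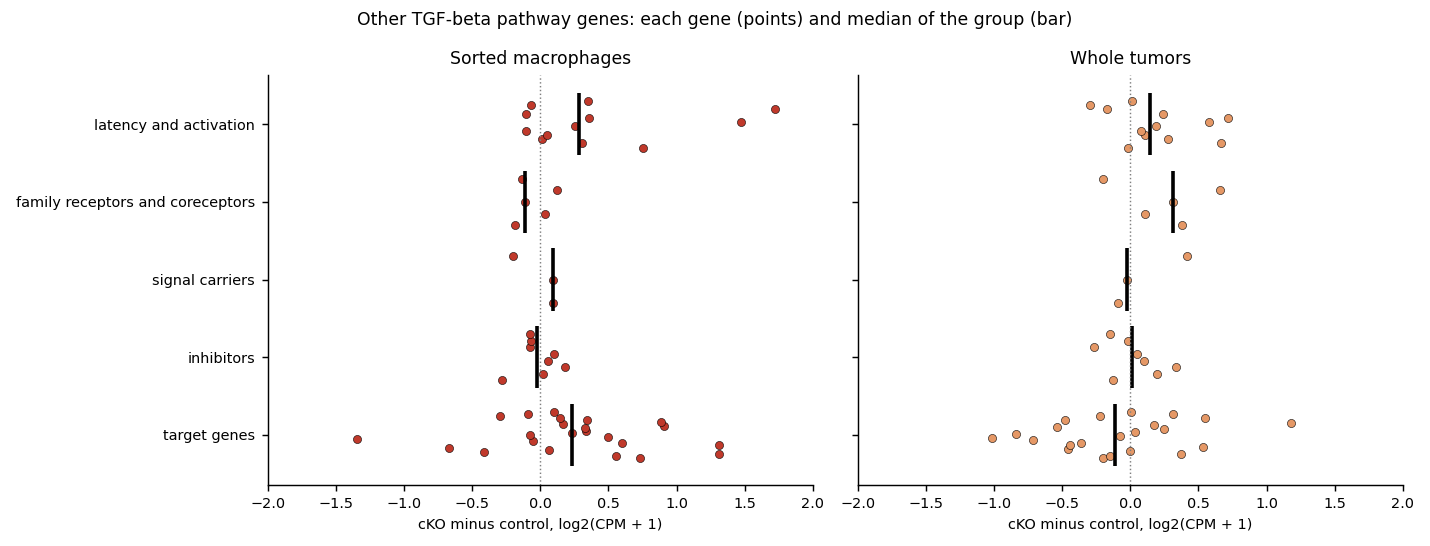
Difference between cKO and control on the log2(CPM + 1) scale for other genes of the pathway, by group, in sorted macrophages and whole tumors. Points are genes and black bars the median of the group, with levels scaled by library total only. Latency and activation genes have medians of 0.28 in macrophages (0.089 without control 775) and 0.15 in tumors (0.048 without control 720). Target genes have medians of 0.24 in macrophages (-0.02 without cKO 867) and -0.11 in tumors, and no gene passed the test.

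Genes most like each of the 10 were those with the smallest root mean square difference of log2 levels, centred on the mean of each table, over 10 libraries and 8493 protein-coding genes. For Smad7 the nearest was Klf10, at 0.27 log2 units, where Smad7 itself varied by 0.63 around its means. In macrophages Klf10 was at 188, 225 and 189 CPM in cKO and 122, 247 and 133 CPM in controls, and in tumors at 25.7 and 47.4 CPM in cKO and 41.1 and 20.8 CPM in controls. Its high and low libraries were those of Smad7 in both kinds of sample. The next was Tlnrd1, at 0.28. For Tgfbr3, which varied by 0.52, the nearest were Col12a1 (0.21) and Pakap (0.23). Among ligands, the nearest were Chd1 and Slc6a6 to Tgfb1 (both 0.15, where it varied by 0.35), Sipa1l3 (0.12) and Lama5 (0.13) to Tgfb2, which varied by 0.31, and Surf4 (0.15) and Tmem132a (0.16) to Tgfb3, which varied by 0.46. Ltbp1, which varied by 0.36, was nearest to Ghr (0.16) and Yes1 (0.17), and Thbs1, which varied by 0.41, to Wipi1 (0.15) and Nisch (0.17). Tgfbr1, which varied by 0.33, was nearest to Manf and Sema4b (both 0.16), Tgfbr2, which varied by 0.12, to Gatad1 (0.07) and Tcf12 (0.08), and Smad3, which varied by 0.39, to Lats2 and Ttc39b (both 0.15). The 10 libraries come from 6 mice, and these are descriptions only.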

How the data were processed

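RNA was sequenced from 6 sorted macrophage and 4 whole-tumor libraries. The submitters' processing notes list STAR 2.7.8a, Partek and the build GRCm38 (mm10), with no role or order. The values that the authors deposited are log2 values with no stated formula. Raised as powers of 2 and less 1, they sum to 1000000 in every library, so they were read as log2(CPM + 1) and turned back into CPM. Steps between low values gave the depth, but of those values only 82.7% to 89.4% were whole reads within 0.1 read, so no count test was run. Of the deposited gene starts 2.19% and 2.29% match GENCODE vM21, and positions were therefore taken from that annotation through gene identifiers.

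The macrophage and tumor tables were fitted separately in limma 3.58.1 under R 4.3.3, using log2(CPM + 1), the intensity trend of eBayes and genes averaging 1 CPM or more. P-values are two-sided and adjusted by Benjamini-Hochberg over all genes of a table. The fit was tested on simulated data. The planted changes were larger than any difference found for the 10 genes, so it cannot show whether differences of their size would pass. Within a table each library comes from its own mouse, per the labels. Alternatives were pseudocounts of 0.1 and 5, other filters, trimmed-mean (TMM), median-ratio and protein-coding scaling, no trend, library weights and libraries left out. Every one of the 10 genes is named. From the pathway list, 3 genes per table and direction with the lowest unadjusted p were named, at a mean of 5 CPM or more, and 2 genes were named as most alike to each of the 10. The 10 genes and the lists were chosen with earlier results of these data known.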

Additional observations from a re-analysis of the deposited data

Results flagged for a closer look

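Zfyve9, which encodes SARA, a protein that brings Smad proteins to the receptor, lay on opposite sides in macrophages and tumors without overlap of the genotypes. It was at 48.8, 51.7 and 54.5 CPM in cKO macrophages and 57.8, 57.6 and 63.3 CPM in control macrophages (log2 difference -0.20, limma unadjusted p = 0.4795 and adjusted p = 0.9998), and at 60.8 and 67.8 CPM in cKO tumors and 46.9 and 48.6 CPM in control tumors (difference 0.42, limma unadjusted p = 0.1217 and adjusted p = 0.8378). Every cKO library lay below every control for 3.45% of all genes in macrophages, and above for 21.2% in tumors. Zfyve9 came from a search for this pattern among the 10 genes, Cxcr4 and the 52 genes of the pathway list. The share of all genes with opposite sides in macrophages and tumors was not counted. The difference between macrophages and tumors was not tested.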

How the results depend on the processing

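None of the 10 genes passed the test under any alternative run. Passing genes over the macrophage table numbered 0 to 3 when 1 library was left out, and 2 among the 4 mice with both kinds of sample. Some near-zero differences turned sign with scaling: Tgfbr1 in macrophages (-0.0052 by median-ratio, -0.041 by protein-coding scaling) and in tumors (-0.050 by TMM, -0.073 by median-ratio, -0.11 by protein-coding scaling), and Tgfbr2 in macrophages (-0.016 by protein-coding scaling). Between macrophages and tumor, protein-coding scaling gave -0.46 for Tgfb3, -0.15 for Ltbp1, -0.016 for Tgfbr2 and -0.040 for Smad3. With 1 macrophage library left out, differences ran from -0.30 to 0.25 for Tgfb2, -0.42 to 0.27 for Thbs1, -0.23 to 0.37 for Tgfbr1 and -0.0024 to 0.089 for Tgfbr2. With 1 tumor left out, they ran from -0.26 to 0.12 for Tgfb2, -0.42 to 0.10 for Ltbp1, -0.081 to 0.65 for Thbs1, -0.061 to 0.081 for Tgfbr1, -0.021 to 1.21 for Smad3 and -0.73 to 1.02 for Smad7. A lone tumor is then assumed to vary like the other group. Values added after seeing the data, with 1 library left out, ran from -0.060 to 2.30 for Col1a1 in macrophages. Medians there ran from -0.023 to 0.37 for target genes, -0.22 to 0.11 for receptors, -0.10 to 0.12 for inhibitors and -0.15 to 0.17 for signal carriers. In tumors they ran from -0.14 to 0.15 for inhibitors and -0.14 to 0.18 for signal carriers. With 1 mouse left out, Tgfb3 between macrophages and tumor ran from -0.20 to 0.27. The causes were not tested. No paired analysis was possible because cKO and control mice share no numbers. Macrophages and tumors share 4 mice, but their tables were normalized separately and were not tested against each other.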
